A study of Homo sapiens with 21 samples.

Results

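The plasma membrane amino acid transporter genes described here through oxidative stress and DNA damage in cultured human cells were SLC7A11, SLC7A5, SLC3A2, SLC7A1, SLC1A4, SLC1A5, SLC38A1, SLC38A2, SLC6A9 and SLC43A1. They were chosen by symbol, with earlier results of these data known, and are 10 of the 23368 genes in the expression table. Counts of members set beside shares of all genes are therefore description. All 10 were among the 19694 genes that had a nonzero value in some library and were tested. The cells were hTERT-HPNE, 1 nontransformed line of pancreatic origin immortalized with telomerase reverse transcriptase (TERT). They received either 300 µM hydrogen peroxide (H2O2), an oxidant, or 400 ng/ml neocarzinostatin (NCS), a drug that breaks both strands of DNA, and RNA was taken at 4, 8 and 24 h. With cells taken before treatment, at 0 h, this made 7 groups of 3 biological replicates, or 21 libraries of mRNA. The medium was changed when the agents were added and no later untreated cells were analysed here, so in a comparison with untreated cells the agent, the fresh medium and the time in culture cannot be told apart. H2O2 and NCS samples of the same hour share the medium change and the time.

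Amino acids cross the plasma membrane through carriers of several families. Some, such as the SLC7A11 and SLC7A5 proteins, are light chains that reach the surface only when joined to the heavy chain encoded by SLC3A2. Many of these genes are known targets of ATF4, a transcription factor made when amino acids run short or when proteins misfold, and SLC7A11 is also a known target of NFE2L2 (NRF2), the main antioxidant regulator. The SLC7A11 carrier brings in cystine, from which cells make glutathione, a scavenger of peroxides.

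The values were the authors' rLog values, a regularized log2 read count in which differences of low genes are shrunk toward 0. They ran from -2.31 to 20.31, and library medians lay between 7.15 and 7.19. Counts were not used here, and sequencing depth is therefore unknown, with no counting interval to give. The H2O2 8 h replicate 2 library stood apart. Its mean Euclidean distance to the other replicates of its group was 14.9 rLog units over all tested genes, against 13.1 and 13.3 for the others in that group and 9.28 to 11 elsewhere. In it 8 of the 10 transporters were lower than in both other 8 h replicates, so each member's difference from untreated cells at 8 h, the counts and the medians are given with and without it, as are the steps it moved most. The marker check of the cell label was mixed: all 5 mesenchymal or progenitor markers exceeded 7 on the rLog scale, as did TERT, the introduced gene, at 14.04, but of 10 duct epithelium markers 2 did so, and the defining duct markers KRT19 and EPCAM were near the floor (0.60 and -1.76 in untreated cells). No marker of acinar cells, islets, leukocytes or endothelium exceeded 7.

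As background to the regulators, promoter windows from RefSeq (GRCh38.p14, 250 bases before to 50 after an annotated start) were searched for the letters TGATGNAA on both strands. These letters are the core of the C/EBP-ATF response element (CARE), to which ATF4 binds with a C/EBP partner. Windows were given for 9 of the 10 genes, 16 windows in all, and none for SLC7A11. The motif stood in 5 of the 16 windows and 5 of the 9 genes, where 3.62% of 35116 windows and 4.46% of 27305 genes hold it. A gene with more windows has more room for a match. In SLC3A2, SLC1A4, SLC1A5 and SLC38A1 the match stood in the window farthest downstream, and their other windows held none. For the matching windows of SLC1A4 and SLC38A1, the 50 bases after the start were not found in a GENCODE v29 transcript. The stretches around these matches are shown because the members that hold the letters and those that do not can be set beside the expression values. They are written 5′ to 3′ on the gene's strand, with the matched 8 bases in capitals (TTACATCA and TTGCATCA are matches on the other strand).
SLC3A2, chr11:62881725-62881748, plus strand: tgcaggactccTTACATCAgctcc
SLC7A1, chr13:29595663-29595692, minus strand: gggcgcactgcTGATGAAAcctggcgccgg
SLC1A4, chr2:64989381-64989410, plus strand: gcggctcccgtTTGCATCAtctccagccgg
SLC1A5, chr19:46784893-46784922, minus strand: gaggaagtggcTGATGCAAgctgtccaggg
SLC38A1, chr12:46266502-46266531, minus strand: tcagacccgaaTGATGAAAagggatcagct
In GENCODE v29 the matches of SLC3A2, SLC7A1 and SLC1A5 overlapped an annotated UTR exon of some transcript, and those of SLC1A4 and SLC38A1 lay in an intron. Also searched were the antioxidant response element core, TGACNNNGC, found in 4 of 16 windows (13.3% of all windows), and the E-box CACGTG, found in 3 of 16 (7.26%). A match describes these letters in these windows and was not tied to binding here.

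**Figure D1:**
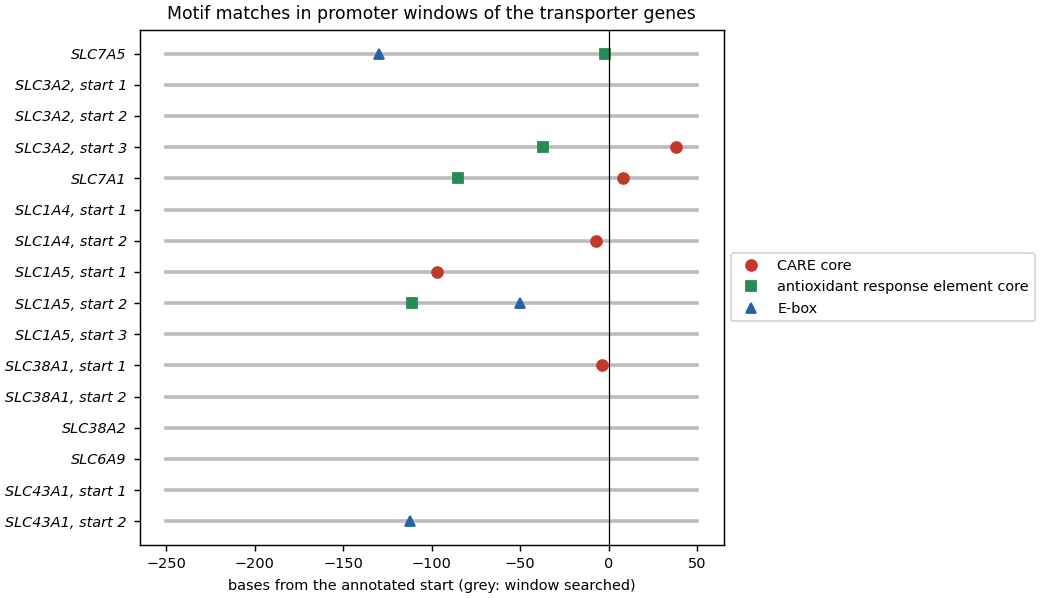
Positions of the 3 motifs in the 16 promoter windows of 9 transporter genes. The x axis gives bases from the annotated start, grey lines are the windows searched, starts of a gene are numbered by coordinate, and each symbol marks the first base of a match. The CARE core lies within 100 bases of the start in all 5 windows that hold it.

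Most of these genes were higher after H2O2 at all 3 times. After NCS none was higher at 4 h, 1 was at 8 h and 4 were at 24 h. By limma's moderated test, with Benjamini-Hochberg adjustment over all 19694 genes and a threshold of 0.05, 9 of 10 transporters exceeded their untreated level at 4 h of H2O2 and none was below it, where 26.2% of all genes were higher and 19.7% lower. At 8 h, 9 were again higher and none lower, against 18.8% and 18.6% of all genes, and these counts were also 9 and 0 without replicate 2. At 24 h, 9 were higher and 1 lower, against 20.2% and 19.9%. After NCS, none was higher and 3 were lower at 4 h (7.47% and 9.72% of all genes), 1 was higher and 3 lower at 8 h (10.5% and 13.3%), and 4 were higher and 1 lower at 24 h (19.6% and 18.4%). The median log2 difference over the 10 was 0.39, 0.88 and 0.58 at 4, 8 and 24 h of H2O2, and -0.05, -0.06 and 0.07 after NCS, while the median over all tested genes was at most 0.004 in these 6 comparisons. The 8 h median was 0.94 without replicate 2. These 6 comparisons share the untreated libraries. All 10 transporters had a mean rLog of at least 5, whereas the shares of all genes include low genes, whose differences are shrunk. No share over genes of that mean alone is given. Past a log2 difference of 1 as well, the members called were 3 at 8 h of H2O2 (SLC6A9, SLC7A5 and SLC3A2; 0.32% of all genes) and 1 at 24 h (SLC6A9; 0.325%). Without replicate 2 the 8 h count was 4, SLC1A4 being added at 1.03, and the count past 0.58 below was 7 as with it. Past 0.58 they were 3 at 4 h (2.25%), 7 after 8 h (1.38%) and 5 at 24 h of H2O2 (1.59%), and 1 at 24 h of NCS (0.944%). In bulk RNA, fewer cells carrying a transcript and less of it per cell cannot be told apart. Of the 5 mesenchymal or progenitor markers, 0 were higher and 5 lower at 24 h of H2O2, with a median difference of -0.26, and their part in the transporter values was not tested. The authors called the replicates biological. The p-values and SE rest on the spread between replicates pooled over the 7 groups and moderated across genes. An SE is thus not that of the 2 groups compared, and a group of wider spread gets the same one. An exact permutation test of 3 libraries against 3 cannot give a p below 0.1.

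**Figure D2:**
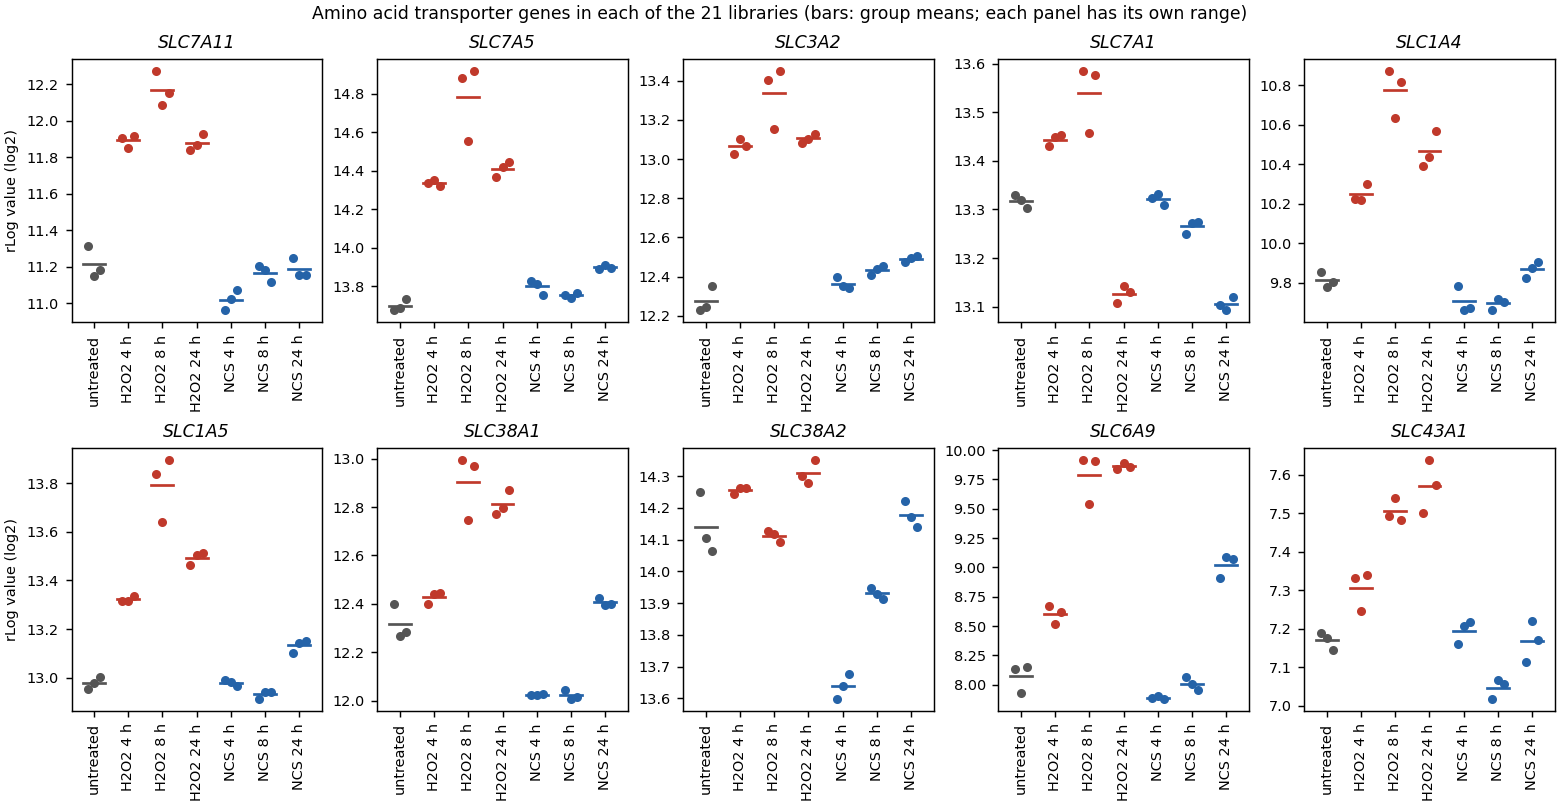
rLog values (log2 scale, y axis, own range in each panel) of the 10 transporter genes in each of the 21 libraries, by group along the x axis; each point is 1 library and bars are group means. SLC6A9 covers the widest span of group means, and the H2O2 groups of the SLC7A11, SLC7A5 and SLC3A2 panels sit above all other groups.

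The cystine transporter gene SLC7A11, its heavy chain gene SLC3A2 and SLC7A5, which encodes another light chain of that heavy chain, rose together under H2O2. SLC7A11 (xCT, the light chain that exchanges cystine for glutamate) read 11.31, 11.15 and 11.18 on the rLog scale in untreated cells, 11.91, 11.85 and 11.92 at 4 h of H2O2, 12.27, 12.09 and 12.15 at 8 h, and 11.84, 11.86 and 11.93 at 24 h. After NCS it read 10.96, 11.02 and 11.07 at 4 h, 11.20, 11.18 and 11.11 after 8 h, and 11.24, 11.15 and 11.15 at 24 h. All 9 H2O2 libraries lay above all 12 others, and the 3 NCS 4 h libraries lay below all 18 others. Its rise was 0.68 ± 0.05 (log2, SE from the fit of all 21 libraries, n = 3 per group) at 4 h (limma adjusted p = 1.93e-09), 0.95 ± 0.05 at 8 h (7.44e-11) and 0.66 ± 0.05 at 24 h (1.37e-09). The 8 h value was 1.00 without replicate 2. At 4 h of NCS it fell by 0.20 ± 0.05 (adjusted p = 0.00633), a call lost without untreated replicate 1 (-0.15, adjusted p = 0.0502), while at 8 h the difference was -0.05 (95% interval -0.15 to 0.05) and at 24 h -0.03 (-0.13 to 0.07). SLC7A11 overlaps the antisense gene SLC7A11-AS1, and although the libraries were stranded, whether reads were counted by strand is not given in the sources used here, so reads of the 2 genes may not have been told apart.

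SLC7A5 (LAT1, the exchanger of leucine and other large neutral amino acids) read 13.68, 13.69 and 13.73 in untreated cells, and 14.34, 14.35 and 14.32 at 4 h, 14.88, 14.55 and 14.92 after 8 h and 14.37, 14.42 and 14.45 at 24 h of H2O2. The NCS libraries read 13.83, 13.81 and 13.76 at 4 h, 13.76, 13.74 and 13.77 after 8 h, and 13.89, 13.91 and 13.89 at 24 h. Every H2O2 library was above every other library, the replicate 2 library at 8 h being the lowest of its group. The rise was 0.64 ± 0.06 at 4 h (limma adjusted p = 8.4e-08), 1.08 ± 0.06 at 8 h (2.26e-10; 1.20 without replicate 2) and 0.71 ± 0.06 at 24 h (1.18e-08). After NCS it passed at 24 h, at 0.20 ± 0.06 (adjusted p = 0.0118), but not after quantile normalization (0.06, adjusted p = 0.447), and the differences at 4 and 8 h were 0.10 (95% interval -0.03 to 0.23) and 0.05 (-0.07 to 0.18). The 4 h difference passed when only the groups compared were fitted (0.10, adjusted p = 0.0485).

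SLC3A2 (4F2hc, the heavy chain that both light chains need) moved alongside them. It read 12.23, 12.25 and 12.35 in untreated cells, 13.03, 13.10 and 13.07 at 4 h of H2O2, 13.40, 13.15 and 13.45 at 8 h and 13.08, 13.11 and 13.13 at 24 h. NCS libraries read 12.40, 12.35 and 12.34 at 4 h, 12.41, 12.44 and 12.45 after 8 h, and 12.47, 12.49 and 12.51 at 24 h. The H2O2 libraries again lay above all others, and the 8 and 24 h NCS libraries lay above the untreated ones. The rise with H2O2 was 0.79 ± 0.05 at 4 h (limma adjusted p = 6.87e-10), 1.06 ± 0.05 at 8 h (5.5e-11; 1.15 without replicate 2) and 0.83 ± 0.05 at 24 h (1.62e-10). With NCS the rise was 0.16 ± 0.05 at 8 h (adjusted p = 0.0303) and 0.21 ± 0.05 at 24 h (0.00228), and the 4 h difference of 0.09 did not pass (95% interval -0.02 to 0.20). The 8 h call was lost without untreated replicate 1 (0.14, adjusted p = 0.121), untreated replicate 2 (0.14, 0.0989), NCS 8 h replicate 2 (0.16, 0.0754) or NCS 8 h replicate 3 (0.15, 0.0912).

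SLC6A9 (GLYT1, the sodium-coupled glycine transporter) had the largest differences of the 10 at 8 and 24 h of H2O2. Untreated cells read 8.13, 7.93 and 8.15 on the rLog scale, against 8.67, 8.52 and 8.62 at 4 h, 9.92, 9.54 and 9.91 after 8 h and 9.84, 9.89 and 9.85 at 24 h of H2O2. After NCS it read 7.88, 7.91 and 7.88 at 4 h, 8.06, 8.00 and 7.96 after 8 h, and 8.91, 9.09 and 9.07 at 24 h. The 24 h NCS libraries thus stood above the untreated libraries and above the 4 h H2O2 libraries, while the 8 h NCS libraries overlapped the untreated range. The rise with H2O2 was 0.53 ± 0.08 at 4 h (limma adjusted p = 2.42e-05), 1.72 ± 0.08 at 8 h (3.66e-11; 1.84 without replicate 2) and 1.79 ± 0.08 at 24 h (1.55e-12). At 8 and 24 h these were the 14th and 8th largest significant rises among all genes tested. With NCS it rose by 0.95 ± 0.08 at 24 h (adjusted p = 1.44e-08), the 35th largest of that comparison, after -0.18 (95% interval -0.35 to -0.02, adjusted p = 0.144) at 4 h and -0.06 (-0.23 to 0.10) at 8 h. The 4 h fall passed with aligned library medians (-0.20, adjusted p = 0.0481). The gene overlaps CCDC24 on the opposite strand, whose reads may not have been told apart.

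SLC1A4 (ASCT1) and SLC1A5 (ASCT2), sodium-dependent exchangers of neutral amino acids such as serine, alanine and, for ASCT2, glutamine, rose at each time of H2O2. SLC1A4 ranged from 9.78 to 9.86 in untreated libraries, 10.22 to 10.30 at 4 h, 10.63 to 10.87 after 8 h and 10.39 to 10.57 at 24 h of H2O2, and from 9.66 to 9.90 over the 9 NCS libraries. It rose by 0.44 ± 0.05 at 4 h (limma adjusted p = 2.4e-06), 0.96 ± 0.05 at 8 h (2.76e-10; 1.03 without replicate 2) and 0.65 ± 0.05 at 24 h (8.74e-09). After NCS its differences were -0.11, -0.12 and 0.06, none past the test. The 8 h fall did pass with aligned library medians (-0.14, adjusted p = 0.0267) and when only the groups compared were fitted (-0.12, 0.0376). SLC1A5 ranged from 12.96 to 13.01 in untreated libraries, 13.31 to 13.34 at 4 h, 13.64 to 13.90 after 8 h and 13.46 to 13.51 at 24 h of H2O2. Its rise was 0.34 ± 0.04, 0.81 ± 0.04 (0.89 without replicate 2) and 0.51 ± 0.04 (adjusted p = 1.85e-06, 9.27e-11 and 6.3e-09). With NCS it was up by 0.15 ± 0.04 at 24 h (adjusted p = 0.00552) from 12.98 to a range of 13.10 to 13.15, with differences of 0.00 and -0.05 at 4 and 8 h that did not pass. SLC1A5 overlaps the antisense gene AC008622.2, whose reads may not have been told apart.

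The 2 sodium-coupled System A carriers, SLC38A1 (SNAT1) and SLC38A2 (SNAT2), which take up glutamine and other small neutral amino acids, fell early after NCS. SLC38A2 read 14.25, 14.11 and 14.06 in untreated cells, then 13.60, 13.64 and 13.68 at 4 h, 13.95, 13.93 and 13.91 after 8 h and 14.22, 14.17 and 14.14 at 24 h of NCS. The 4 h libraries lay below all others in the study and the 24 h libraries within the untreated range. It fell by 0.50 ± 0.04 at 4 h (limma adjusted p = 1.01e-08) and by 0.21 ± 0.04 at 8 h (0.000184), and differed by 0.04 (95% interval -0.04 to 0.11) at 24 h. That 24 h difference passed without untreated replicate 1 (0.09, adjusted p = 0.0107). SLC38A1 read 12.40, 12.27 and 12.29 in untreated cells and stayed between 12.01 and 12.04 in the 6 libraries at 4 and 8 h of NCS, a fall of 0.29 ± 0.05 (adjusted p = 0.000208) and 0.30 ± 0.05 (0.000106), and between 12.40 and 12.42 at 24 h. The 24 h difference of 0.09 did not pass, but it did after quantile normalization (0.11, adjusted p = 0.0497).

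Under H2O2, SLC38A1 was called at 8 and 24 h and SLC38A2 at 4 and 24 h. SLC38A1 read 12.40, 12.44 and 12.45 at 4 h, 13.00, 12.75 and 12.97 after 8 h, and 12.77, 12.80 and 12.87 at 24 h. Its 4 h difference of 0.11 did not pass (95% interval 0.01 to 0.21, limma adjusted p = 0.0665, but 0.15 and 0.0209 without untreated replicate 1), and it then rose by 0.59 ± 0.05 at 8 h (2.17e-08; 0.67 without replicate 2) and 0.49 ± 0.05 at 24 h (7.6e-08). SLC38A2 read 14.24, 14.26 and 14.26 at 4 h, 14.13, 14.12 and 14.09 after 8 h and 14.30, 14.28 and 14.35 at 24 h. It was higher by 0.12 ± 0.04 at 4 h (adjusted p = 0.0114), where its range overlapped the untreated one, and by 0.17 ± 0.04 at 24 h (0.000632), with -0.03 (95% interval -0.10 to 0.05) at 8 h. The 4 h call was lost without untreated replicate 2 (0.10, adjusted p = 0.0542), without untreated replicate 3 (0.08, 0.0824), and after quantile normalization (0.09, 0.104). It was also lost when only the groups compared were fitted (0.12, 0.116). An antisense gene, AC025031.2, overlaps SLC38A2.

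SLC7A1 (CAT1, the carrier of arginine and lysine) was the transporter that ended below its untreated level with both agents. It read 13.33, 13.32 and 13.30 in untreated cells, 13.43, 13.45 and 13.45 at 4 h of H2O2, 13.59, 13.46 and 13.58 at 8 h and 13.11, 13.14 and 13.13 at 24 h. NCS libraries read 13.32, 13.33 and 13.31 at 4 h, 13.25, 13.27 and 13.27 after 8 h, and 13.10, 13.09 and 13.12 at 24 h. The groups at 24 h overlapped each other and lay below all other libraries. It rose by 0.13 ± 0.02 at 4 h (limma adjusted p = 0.000303) and 0.22 ± 0.02 at 8 h of H2O2 (7.33e-07; 0.26 without replicate 2), fell by 0.19 ± 0.02 at 24 h of H2O2 (2.97e-06), and fell by 0.21 ± 0.02 at 24 h of NCS (8.67e-07). At 8 h of NCS its difference of -0.05 did not pass, but it did with aligned library medians (-0.08, adjusted p = 0.0275).

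SLC43A1 (LAT3, a facilitative carrier of leucine and other large neutral amino acids) had the lowest rLog values of the 10. It ranged from 7.14 to 7.19 in untreated libraries, 7.25 to 7.34 at 4 h, 7.48 to 7.54 after 8 h and 7.50 to 7.64 at 24 h of H2O2, and from 7.02 to 7.22 over the NCS libraries. It rose by 0.14 ± 0.04 at 4 h (limma adjusted p = 0.00982), 0.34 ± 0.04 at 8 h (2.23e-06; 0.32 without replicate 2) and 0.40 ± 0.04 at 24 h of H2O2 (1.35e-07). With NCS it was lower by 0.12 ± 0.04 at 8 h (adjusted p = 0.0319). That call did not hold without untreated replicate 1 (-0.11, adjusted p = 0.0988), untreated replicate 2 (-0.12, 0.0798), NCS 8 h replicate 1 (-0.11, 0.109) or NCS 8 h replicate 3 (-0.13, 0.0619). Nor did it hold when only the groups compared were fitted (-0.12, 0.0507).

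**Figure D3:**
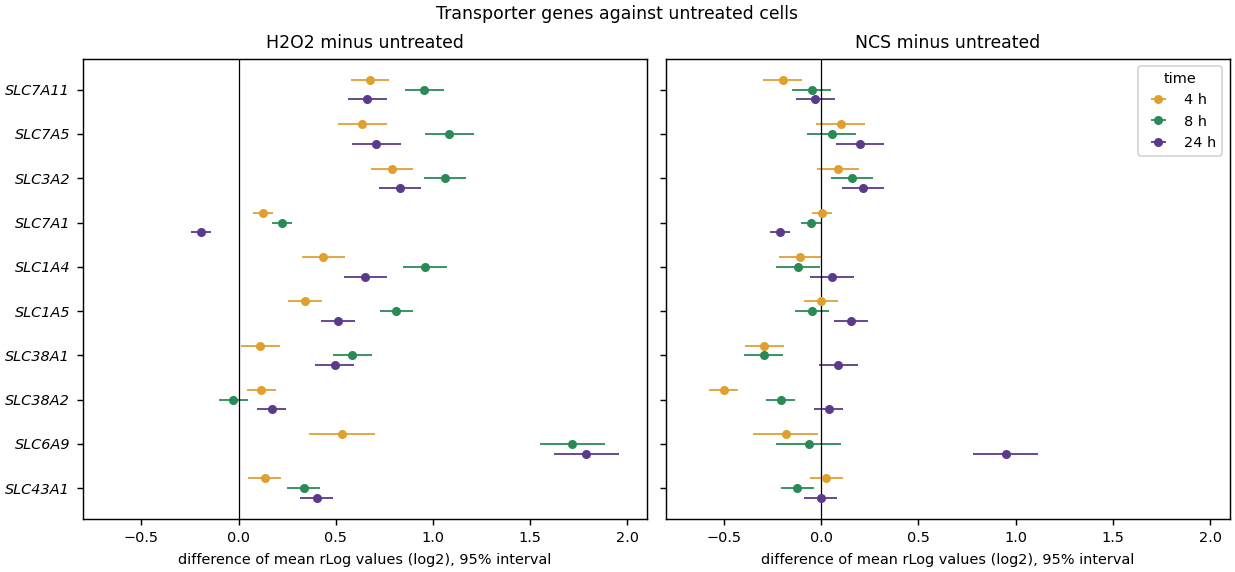
Difference from untreated cells (log2 scale, x axis) of each of the 10 transporter genes (rows) at 4, 8 and 24 h of H2O2 (left panel) and of NCS (right panel); points are limma estimates and bars their 95% intervals (n = 3 per group). The H2O2 points of SLC6A9 reach 1.79 and those of SLC38A2 stay between -0.03 and 0.17, while its NCS point at 4 h lies at -0.50.

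Measured directly between agents at the same hour, where the medium change and the time were shared, all 10 transporters were higher with H2O2 than with NCS at 4 h (26.3% of all genes were higher) and at 8 h (18.7%), and 9 were higher at 24 h (11%). None was lower at any of the 3 times, against 18%, 15.4% and 10.9% of all genes. The median difference was 0.54, 0.89 and 0.46 at these times, and 0.98 at 8 h without H2O2 replicate 2. Past a log2 difference of 1, 4 members were called at 8 h (0.157% of all genes), and past 0.58 the counts were 4, 7 and 4 (2.14%, 0.711% and 0.279%). At 8 h SLC6A9 led at 1.78 ± 0.08 (1.90 without H2O2 replicate 2), the 5th largest significant rise of all genes, followed by SLC1A4 at 1.08, SLC7A5 at 1.03, SLC7A11 at 1.00 and SLC3A2 at 0.90. Without that library these 4 were 1.15, 1.15, 1.05 and 0.99, and the 8 h counts were again 10 higher, 4 past 1 and 7 past 0.58. At 4 h SLC7A11 had the largest difference of the 10, 0.87 ± 0.05 (limma adjusted p = 7.52e-11), and SLC43A1 the smallest, 0.11 ± 0.04 (0.0323). The call of SLC43A1 was lost without H2O2 4 h replicate 1 or 3 (0.10 and 0.09, adjusted p = 0.098 and 0.114) and without NCS 4 h replicate 1 or 2 (0.09 and 0.12, 0.117 and 0.054). It was also lost with aligned library medians (0.0714), a mean of at least 5 (0.0613) or only these groups fitted (0.0737). At 24 h SLC7A1 was the member that did not pass, at 0.02 (95% interval -0.03 to 0.07), and SLC38A2, at 0.13 ± 0.04 (adjusted p = 0.0107), was lost without H2O2 24 h replicate 3 (0.11, 0.0588) or NCS 24 h replicate 3 (0.11, 0.0554). After quantile normalization SLC7A1 passed (0.08, adjusted p = 0.00781).

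Successive times of each agent were compared next. From 4 to 8 h of H2O2, 9 transporters rose and 1, SLC38A2, fell (18% and 27.7% of all genes). The largest step was that of SLC6A9, 1.19 ± 0.08 (limma adjusted p = 1.8e-09), the 4th largest rise of that comparison and the 1 member past a log2 difference of 1 (0.0457% of all genes) or 0.58 (0.985%). Without H2O2 8 h replicate 2 its step was 1.31, 9 again rose and 1 fell, the median step was 0.45 and 2 members passed 0.58. The fall of SLC38A2, -0.15, was lost after quantile normalization (-0.09, adjusted p = 0.115), and the rise of SLC7A1, 0.10, when only these groups were fitted (adjusted p = 0.103). From 8 to 24 h of H2O2, 6 fell and 1, SLC38A2, rose (23.2% and 19.4% of all genes). SLC7A1 fell by 0.41 ± 0.02, SLC7A5 by 0.38 ± 0.06, SLC1A4 by 0.31 ± 0.05, SLC1A5 by 0.30 ± 0.04, SLC7A11 by 0.29 ± 0.05 and SLC3A2 by 0.23 ± 0.05. Without H2O2 8 h replicate 2 these falls were 0.45, 0.49, 0.38, 0.38, 0.34 and 0.32 in that order, and 7 members fell. The fall of SLC3A2 was lost when only the 2 groups compared were fitted (adjusted p = 0.0614). SLC6A9 differed by 0.07 ± 0.08 over these hours and SLC38A1 by -0.09 ± 0.05, and neither passed, but without H2O2 8 h replicate 2 SLC38A1 passed at -0.17 (adjusted p = 0.000364). From 4 to 8 h of NCS, SLC7A11 and SLC38A2 rose and SLC43A1 fell (6.16% of all genes rose and 7.5% fell), SLC38A2 by 0.29 ± 0.04 (adjusted p = 1.55e-05). The call of SLC7A11, at 0.15 ± 0.05 (0.0453), was lost without NCS 4 h replicate 1 or 2 (0.12 and 0.15, adjusted p = 0.191 and 0.102) and without NCS 8 h replicate 1 or 2 (0.13 and 0.14, 0.151 and 0.128). It was also lost in a fit with no mean-variance trend (0.0642). That of SLC43A1, at -0.15 ± 0.04 (0.0178), was lost without NCS 4 h replicate 2 or 3 (both -0.14, 0.0625 and 0.0677) and without NCS 8 h replicate 1 (-0.13, 0.0729). From 8 to 24 h of NCS, 6 rose and 1, SLC7A1, fell (14.9% and 15% of all genes). SLC6A9 made the largest step here too, 1.01 ± 0.08 (adjusted p = 1.3e-08), the 2nd largest rise of all genes and the 1 member past 1 (0.0102%) or 0.58 (0.218%), and SLC38A1 rose by 0.39 ± 0.05 (3.97e-06). The rise of SLC1A4, 0.17 ± 0.05, was lost without NCS 8 h replicate 1 (0.16, adjusted p = 0.0707), NCS 24 h replicate 2 (0.17, 0.0533) or NCS 24 h replicate 3 (0.16, 0.0728). The rise of SLC43A1, 0.12 ± 0.04, was lost without NCS 8 h replicate 1 or 3 (0.11 and 0.13, 0.0981 and 0.0543) and without NCS 24 h replicate 2 or 3 (0.10 and 0.12, 0.13 and 0.0657). It was also lost when only these groups were fitted (adjusted p = 0.0702). The change of the H2O2-NCS difference between 4 and 24 h passed for 4 members, 1 upward and 3 downward (16.6% and 22.7% of all genes), as described in the closing section.

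Read per length of annotated exons, which is the scale on which levels of different genes can be compared, the untreated levels were ordered SLC7A5 at 11.45, SLC38A2 at 11.42, SLC1A5 at 11.24, SLC7A1 at 10.38, SLC3A2 at 9.90, SLC38A1 at 8.99, SLC7A11 at 7.95, SLC1A4 at 7.02, SLC6A9 at 5.71 and SLC43A1 at 5.35 (rLog minus log2 of exonic kilobases, GENCODE v29). The 2 genes with the lowest levels on this scale were thus SLC6A9, with the largest differences at 8 and 24 h of H2O2, and SLC43A1. The length is that of all annotated exons of a gene, so a shorter transcript in use would place it higher.

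The members' patterns over the 7 group means were compared by Pearson's r, as a description over 7 points that share their libraries. The closest member pairs were SLC1A4 and SLC1A5 (r = 0.991), SLC7A5 and SLC3A2 (0.986), SLC7A5 and SLC1A5 (0.986) and SLC7A5 and SLC1A4 (0.983). SLC7A11 was closest to SLC3A2 (0.979). SLC7A1 was least like the rest, with r between -0.13 and 0.49, and was at -0.13 with SLC38A2. Among all genes with a mean of at least 5, the ones most like SLC1A5 were MTHFD2, a mitochondrial enzyme of one-carbon metabolism (0.996), SLC1A4 (0.991) and ANKRD11 (0.989). MTHFD2 also led for SLC7A5 (0.988), ahead of SLC3A2 and SLC1A5 (both 0.986), and was 3rd for SLC1A4 (0.989) after ANKRD11 (0.992) and SLC1A5.

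Other members had other neighbors. SLC6A9 was closest to RNF149 (0.996), NARS, the asparaginyl-tRNA synthetase (0.994), and MGEA5 (0.993). SLC7A11 was closest to EIF3E (0.986), a translation initiation factor subunit, FXYD5 (0.984) and EPB41L4A-AS1 (0.981), and SLC3A2 to FXYD5 (0.997), GPANK1 and ZNF770 (both 0.986). For SLC7A1 the closest were PITHD1 (0.988), MTMR2 (0.985) and MFSD2A (0.982), and for SLC38A1 AP1AR (0.988), SEC63 and IFI16 (both 0.981). SLC38A2 was closest to HECA (0.985), ZFAND6 (0.963) and TAPT1 (0.962), and SLC43A1 to CD44 (0.985), PLEKHM2 (0.977) and CSNK1D (0.971). With 7 points many genes reach such values.

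Of 16 listed regulators of transporter genes, 10 rose and 4 fell against untreated cells at 4 h of H2O2, 9 and 3 at 8 h, and 5 and 6 at 24 h. Of all genes, 26.2% rose and 19.7% fell at 4 h, 18.8% and 18.6% after 8 h, and 20.2% and 19.9% at 24 h. After NCS the counts were 2 and 7 at 4 h, 6 and 4 after 8 h, and 9 and 4 at 24 h, against 7.47% and 9.72%, 10.5% and 13.3%, and 19.6% and 18.4% of all genes. The median difference of the 16 was 0.27, 0.21 and 0.02 with H2O2 and -0.08, -0.03 and 0.07 with NCS. All 16 had a mean rLog of at least 5, whereas the shares of all genes include low genes. ATF4, the amino acid response factor, was higher by 0.92, 0.97 and 0.55 at 4, 8 and 24 h of H2O2, and after NCS its differences were -0.18, -0.04 and 0.21. ATF3, a stress factor downstream of ATF4, rose by 3.45 at 4 h of H2O2 and 1.10 at 24 h, and by 1.58 at 4 h and 0.76 at 24 h of NCS. DDIT3 (CHOP), a C/EBP family member induced with ATF4, rose by 1.45 and 1.39 at 4 and 24 h of H2O2 and by 0.88 at 24 h of NCS. NFE2L2 differed by 0.24, 0.31 and 0.06 with H2O2 and -0.23, -0.12 and -0.04 with NCS. Those that fell most included EIF2AK2 (-0.33) and EIF2AK4 (-0.28), the latter the kinase that senses uncharged tRNA, at 4 h of H2O2, and ATF5 (-0.32) at 24 h. After NCS, MYC (-0.36) and NEDD4L (-0.30), a ubiquitin ligase known to act on transporters, fell at 4 h, MYC (-0.28) fell at 24 h, and ATF5 rose at 4 h by 0.14.

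**Figure D4:**
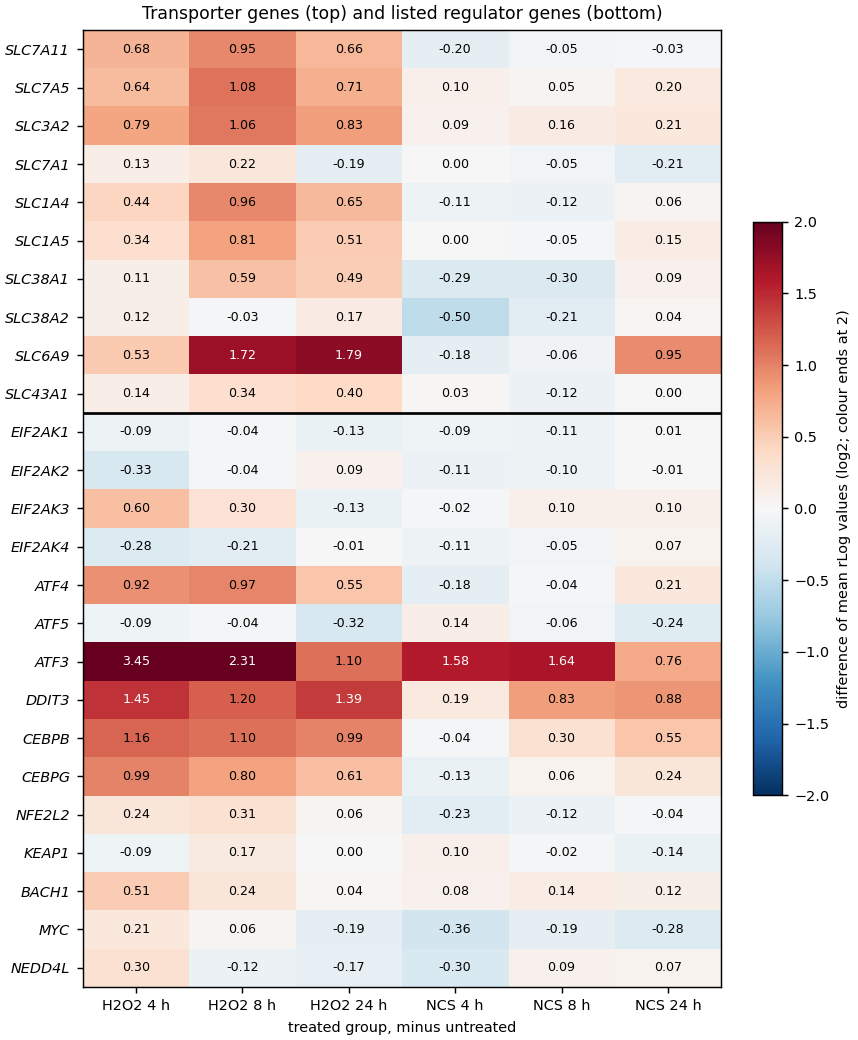
Heat map of log2 differences from untreated cells for the 10 transporter genes and 15 of the listed regulators (rows) at 4, 8 and 24 h of H2O2 and NCS (columns); the number in each cell is the difference and colors end at 2 in either direction. ATF4 reads 0.92, 0.97 and 0.55 with H2O2, while its largest value with NCS is 0.21.

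Genes downstream of cystine uptake moved as follows, and all 12 listed had a mean rLog of at least 5. Of 12 genes from cystine to glutathione, 6 were higher and 1 lower at 4 h of H2O2, 9 and 2 at 8 h, and 8 and 1 at 24 h, and after NCS the counts were 1 and 2, 3 and 1, and 6 and 3. The shares of all genes higher were 26.2%, 18.8% and 20.2% with H2O2 and 7.47%, 10.5% and 19.6% with NCS. The shares lower were 19.7%, 18.6% and 19.9% with H2O2 and 9.72%, 13.3% and 18.4% with NCS. CHAC1, which degrades glutathione, rose by 1.79 at 4 h and 1.53 at 24 h of H2O2 and by 0.94 at 24 h of NCS. GGT1, which splits glutathione outside the cell, rose by 0.94 at 4 h of H2O2, and CBS, an enzyme that makes cystathionine on the way to cysteine, by 1.12 at 24 h of H2O2 and 0.76 at 24 h of NCS. GCLM, the modifier subunit of glutamate-cysteine ligase, rose by 0.50, 0.82 and 0.12 at 4, 8 and 24 h of H2O2, and after NCS it rose by 0.16 at 4 h and fell by 0.15 at 24 h. TXNRD1, thioredoxin reductase, rose by 0.33, 1.06 and 0.46 with H2O2 and fell by 0.25 at 24 h of NCS. GSR, glutathione reductase, rose by 0.34 at 8 h of H2O2 and fell by 0.08 and 0.25 at 24 h of H2O2 and NCS. GGT5 fell by 0.09 at 4 h of each agent.

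Of 21 listed genes of amino acid sensing by mTORC1, the kinase complex that leucine and arginine activate, searched under 24 old and new symbols, 19 were tested. Of these 19, 16 had a mean rLog of at least 5. At 4, 8 and 24 h of H2O2, 8, 7 and 11 were higher and 4, 2 and 0 lower, and after NCS 2, 4 and 10 were higher and 4, 2 and 1 lower. Of all genes, 26.2%, 18.8% and 20.2% were higher with H2O2 and 7.47%, 10.5% and 19.6% with NCS. The shares lower were 19.7%, 18.6% and 19.9% with H2O2 and 9.72%, 13.3% and 18.4% with NCS. SESN2, a leucine sensor that inhibits the pathway, rose by 1.87 and 1.56 at 4 and 24 h of H2O2 and by 1.10 and 1.00 at 4 and 24 h of NCS. Its relative SESN1 rose by 0.71 and 0.93 with H2O2 and by 1.20 and 0.89 with NCS at those times. MTOR (-0.37) and RPTOR (-0.33), subunits of the complex, fell at 4 h of H2O2. After NCS the largest of the 4 falls at 4 h were C7orf60 (-0.37) and FNIP1 (-0.20), and the 1 fall at 24 h was FNIP2 (-0.10).

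Of 42 other amino acid transporter genes, listed under 43 symbols, 35 were tested and 15 had a mean rLog of at least 5. Of the 35, 11 were higher and 3 lower at 4 h of H2O2, 7 and 6 at 8 h, and 9 and 5 at 24 h, against 26.2% and 19.7%, 18.8% and 18.6%, and 20.2% and 19.9% of all genes, and the median difference was 0.03, 0.01 and 0.004. Of the 11 higher at 4 h, only SLC6A15 (0.24) had a mean of at least 5. The 3 lower ones, SLC6A6, SLC7A6 and SLC38A9, all had such a mean. After NCS, 2 were higher and 3 lower at 4 h, 4 and 4 after 8 h, and 8 and 5 at 24 h (7.47% and 9.72%, 10.5% and 13.3%, and 19.6% and 18.4% of all genes). SLC6A15, a transporter of branched-chain amino acids and proline, rose by 1.42 at 24 h of H2O2 and 0.72 at 24 h of NCS, and SLC38A7, a glutamine carrier, by 0.50 and 0.32. SLC7A7, a light chain for basic amino acids that also joins SLC3A2, rose by 0.70 at 4 h of H2O2, and SLC6A17 by 0.35, with low mean rLog values of 4.43 and 3.00. SLC7A2 (CAT2), a cationic carrier like SLC7A1, was lower by 0.64 at 24 h of H2O2 and 0.75 at 24 h of NCS, after a rise of 0.27 at 4 h of NCS, when PQLC2, a lysosomal exporter of basic amino acids, rose by 0.18. SLC38A4 fell by 0.56 at 24 h of H2O2 and 0.18 at 4 h of NCS. SLC6A6, the taurine carrier, fell by 0.24 at 4 h of H2O2 and by 0.18 and 0.50 at 4 and 24 h of NCS, and SLC38A9, a lysosomal arginine sensor that is also in the mTORC1 list, by 0.25 at 4 h of H2O2. Whether the 10 and the 35 differ was not tested.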

How the data were processed

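RNA of hTERT-HPNE cells was sequenced from 21 libraries (7 groups of 3 biological replicates). The authors aligned reads with HISAT2 to hg19, counted them with HTSeq and deposited DESeq2 rLog values, which are on a log2 scale. Libraries were made with a stranded mRNA kit. Annotation version, the strand setting of the counting and depth are not given in the sources used here, and no counts were used, so precision rests on the 3 replicates. Of 23368 genes, 3674 were 0 in every library and 19694 were tested. The 10 transporters, the gene lists and the tests were chosen with earlier results of these data known. limma 3.58.1 in R 4.3.3 fitted the 7 group means together, with a mean-variance trend, and p-values were adjusted (Benjamini-Hochberg) over all tested genes within each of 14 comparisons, with a threshold of 0.05. No low-value filter was applied. The fit was tested on simulated data. All members are named. Neighbors are the 3 genes with the highest Pearson r over group means (mean of at least 5). From each list the 2 largest rises and 2 largest falls past the threshold at 4 and 24 h of each agent are named, and listed genes with a stated link to a member. A few listed genes that this rule would name are not reported here. Positions are GRCh38, not hg19. Figures used Python 3.11.15, pandas 2.3.3, numpy 2.4.6 and matplotlib 3.10.9. Alternatives were library medians aligned, quantile normalization, a mean of at least 5, other call limits, only the groups compared, a replicate block, no trend and leaving out each library.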

Additional observations from a re-analysis of the deposited data

Results flagged for a closer look

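In 4 members the difference between H2O2 and NCS was not the same at 24 h as at 4 h, by limma's test of that change itself over 12 libraries. Of all genes, 16.6% changed upward and 22.7% downward by this test, so 4 of 10 members is near the share over all genes. SLC38A2 had the largest change, -0.49 ± 0.05 on the log2 scale (adjusted p = 5.3e-07), from 0.62 at 4 h to 0.13 at 24 h. SLC43A1 changed by 0.29 ± 0.06 (adjusted p = 0.000472), from 0.11 to 0.40. SLC7A11 changed by -0.18 ± 0.07 (adjusted p = 0.0395), from 0.87 to 0.69, and SLC7A1 by -0.10 ± 0.03 (0.0245), from 0.12 to 0.02. The calls of SLC7A11 and SLC7A1 were lost after quantile normalization (-0.13 and -0.03, adjusted p = 0.148 and 0.518). That of SLC7A11 was also lost in a fit with no mean-variance trend (adjusted p = 0.055). That of SLC7A11 was lost without H2O2 4 h replicate 1 (-0.17, adjusted p = 0.0732) or 3 (-0.17, 0.0822), H2O2 24 h replicate 1 (-0.16, 0.0897) or 2 (-0.18, 0.0737), NCS 4 h replicate 1 (-0.15, 0.101) or 2 (-0.18, 0.0612), or NCS 24 h replicate 1 (-0.15, 0.105). That of SLC7A1 was lost without H2O2 4 h replicate 3 (-0.10, 0.0507), H2O2 24 h replicate 1 (-0.09, 0.0604), NCS 4 h replicate 3 (-0.10, 0.0546) or NCS 24 h replicate 3 (-0.10, 0.055).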

How the results depend on the processing

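Of the 14 counts of members past the test, quantile normalization moved by over 1.5 times that of the change between 4 and 24 h of the H2O2-NCS difference, from 4 to 2, and moved 3 others by 1 member. Aligned library medians raised the count at 8 h of NCS from 4 to 6. Requiring a log2 difference over 1 as well left 0, 3 and 1 members at 4, 8 and 24 h of H2O2, 0 at each time of NCS, 0, 4 and 0 for H2O2 against NCS, 1 from 4 to 8 h and 0 from 8 to 24 h of H2O2, 0 and 1 for the same steps of NCS, and 0 for the change of the difference. A limit of 0.58 left 3 and 5 at 4 and 24 h of H2O2, 0, 0 and 1 after NCS, 4 at 4 h and 4 at 24 h for H2O2 against NCS, 1 and 0 for the H2O2 steps, 0 and 1 for the NCS steps, and 0 for the change of the difference. Leaving out 1 library at a time gave 8 to 10 members at 4 h, 9 after 8 h and 10 at 24 h of H2O2, 2 to 3, 2 to 4 and 5 to 6 after NCS, 9 to 10, 10 and 8 to 9 for H2O2 against NCS, 10 and 7 to 8 for the H2O2 steps, 1 to 3 and 5 to 7 for the NCS steps, and 2 to 4 for the change of the difference.

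The main fit did not pair libraries by replicate number, and whether same-numbered libraries shared a batch was not tested. Deviations of same-numbered libraries from their group means had a mean correlation of 0.0274 over 63 pairs, 12 of them over 0.1, against -0.0137 for libraries of different number, of which 7 of 126 pairs were over 0.1. A fit with the replicate block left all 140 member calls on the same side of the threshold. Of the 140 member values, quantile normalization ended 5 calls and added 2, fitting only the groups compared ended 6 and added 5, aligned library medians ended 1 and added 5, a mean of at least 5 ended 1 and added 2, and a fit with no mean-variance trend ended 2; the cause was not tested. No called value changed direction under any alternative run. Signs changed 35 times among values that passed in neither setting, over 16 results, between -0.05 and 0.12 (smallest adjusted p = 0.255). Depth could not be assessed from rLog values, and shrinkage makes differences of low genes smaller than those of their counts.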
